A study of Mus musculus with 12 samples.

Results

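The GTPases of immunity-associated proteins (GIMAP) are a family of small GTP-binding proteins made mainly by lymphocytes, and in the mouse their genes stand side by side on chromosome 6. The 8 genes described here, Gimap1, Gimap3, Gimap4, Gimap5, Gimap6, Gimap7, Gimap8 and Gimap9, were chosen by symbol and found by their Ensembl IDs among 48672 gene IDs counted in RNA from invariant natural killer T (iNKT) cells. These are thymus-derived T cells whose semi-invariant receptor sees lipids presented by CD1d. Cells were sorted from thymi of C57Bl/6J mice aged 4 to 5 weeks, with the thymi of 4 to 7 mice pooled. All sorted cells bound the tetramer and carried the T cell receptor beta chain. Stage 0 cells, the youngest iNKT cells, were CD24+ CD44-, and stage 1 cells were CD24- CD44-. Mice were wild type (WT) or carried a Cre transgene that the labels write as CDCre together with floxed Bcl6 alleles, Bcl6F/F (labelled Bcl6KO). The labels do not spell out the promoter of the Cre. The 2 genotypes at 2 stages give 4 groups, each with 3 libraries. No animal received a treatment. Whether libraries of 1 group stem from different pools of mice is not stated, and the p-values therefore cover only library-to-library spread, which may be technical in part.

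GIMAP proteins bind GTP through a shared AIG1-type domain, and several are anchored in membranes of lysosomes, mitochondria, Golgi or endoplasmic reticulum. They are known for holding lymphocytes in a quiescent, viable state. Loss of Gimap5 or of Gimap1 leaves mice or rats short of mature lymphocytes, Gimap6 binds a protein of the autophagy machinery, and Gimap4 has been tied to the pace of T cell death. Members differ in when they appear during thymocyte development, and several are switched on as thymocytes pass positive selection.

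The 8 genes lie within 123.6 kb of chromosome 6 (mm10, chr6:48647234-48770851). From the lower to the higher coordinate they are Gimap8 (chr6:48647234-48660875), Gimap9 (chr6:48676129-48679114), Gimap4 (chr6:48684549-48692060), Gimap6 (chr6:48701582-48708225), Gimap7 (chr6:48718621-48724636), Gimap1 (chr6:48739054-48743795), Gimap5 (chr6:48746197-48754210) and Gimap3 (chr6:48764464-48770851). Gimap6 and Gimap3 are on the minus strand and the others on the plus strand, and all 8 are annotated as protein coding.

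The bases just before the transcription start are shown for 4 members. These are Gimap4, whose level differed most between the stages, Gimap5 and Gimap3, whose values turned on single libraries, and Gimap6. Gimap6 holds a match to a motif bound by BCL6, as does Gimap8, which is not shown. Each sequence is 250 bases from RefSeq (GRCm38.p6), 5′ to 3′ on the gene's strand, ending at the base before the start annotated by RefSeq. For Gimap4 and Gimap6 that start differs from the gene positions given above, which are from GENCODE. The Gimap4 window ends at 48684577, past the position 48684549, and the Gimap6 window begins at 48708245, beyond 48708225. Capitals mark matches on either strand to TGTGGT (the core bound by RUNX factors), TTCNNNGAA (a core shared by BCL6 and STAT factors) or CCACCC (bound by KLF factors).
Gimap4, plus strand, chr6:48684328-48684577: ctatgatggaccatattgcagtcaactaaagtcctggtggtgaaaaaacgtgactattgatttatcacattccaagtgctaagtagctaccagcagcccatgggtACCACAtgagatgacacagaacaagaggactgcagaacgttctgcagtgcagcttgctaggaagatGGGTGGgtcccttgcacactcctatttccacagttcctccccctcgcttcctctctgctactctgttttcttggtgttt
Gimap5, plus strand, chr6:48745947-48746196: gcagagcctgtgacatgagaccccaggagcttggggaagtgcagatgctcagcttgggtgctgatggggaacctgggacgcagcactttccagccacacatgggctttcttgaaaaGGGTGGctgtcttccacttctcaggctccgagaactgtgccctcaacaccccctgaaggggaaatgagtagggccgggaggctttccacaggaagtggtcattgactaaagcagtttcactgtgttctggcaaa
Gimap3, minus strand, chr6:48770852-48771101: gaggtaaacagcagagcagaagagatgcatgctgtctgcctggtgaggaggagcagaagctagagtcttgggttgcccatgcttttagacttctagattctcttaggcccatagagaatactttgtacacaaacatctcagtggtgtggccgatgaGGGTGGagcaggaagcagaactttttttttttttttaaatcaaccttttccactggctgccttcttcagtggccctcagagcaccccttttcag
Gimap6, minus strand, chr6:48708245-48708494: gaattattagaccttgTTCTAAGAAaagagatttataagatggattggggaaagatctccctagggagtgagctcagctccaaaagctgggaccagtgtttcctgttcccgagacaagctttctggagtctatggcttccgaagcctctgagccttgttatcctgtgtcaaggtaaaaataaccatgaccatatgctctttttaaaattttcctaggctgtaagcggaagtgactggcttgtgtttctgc

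In the Gimap4 sequence the RUNX match begins 145 bases and the KLF match 79 bases before the RefSeq start. RefSeq holds 9 promoter windows for the 8 genes, since Gimap8 has alternative starts. The windows of Gimap8 overlap, so a site in the shared part counts in both. Over windows of 300 bases, which reach 50 bases past the start, the TTCNNNGAA core was in 4 of 9 GIMAP windows and in 8.298% of all 32851 windows. TGTGGT was in 3 of 9 against 16.761%, CCACCC in 5 of 9 against 31.475%, the E box CANNTG in 7 of 9 against 72.314%, and GGAA, the core bound by ETS factors, in 9 of 9 against 95.985%. Motifs were searched one by one on both strands, so a base may belong to more than 1 match. A match describes letters only.

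Gimap3 and Gimap5 share sequence, which bears on how well reads can be assigned to either. Of the 50-base stretches in the annotated transcripts of Gimap3, 8.15% also occur in a gene that does not overlap it, and the share for Gimap5 is 4.53%, with 190 stretches common to both. The longest identical run has 140 bases and lies in the coding part of both genes, at chr6:48765681-48765820 on the minus strand for Gimap3 and chr6:48752684-48752823 on the plus strand for Gimap5.
Gimap3 and Gimap5, shared run: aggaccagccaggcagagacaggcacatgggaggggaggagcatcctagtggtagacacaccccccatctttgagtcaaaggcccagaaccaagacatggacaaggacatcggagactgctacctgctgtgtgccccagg

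For the other members the share was 1.57% in Gimap1, 0.170% in Gimap6 and 0 in Gimap4, Gimap7, Gimap8 and Gimap9. An antisense transcript, Gimap1os, covers 36.0% of the exonic bases of Gimap1, and no source used here says whether counting used strand, so reads of the pair cannot be told apart. The predicted readthrough gene Gm28053 shares 3.48% of Gimap7, 6.44% of Gimap1 and 3.69% of Gimap5, and received between 0 and 6 counts in a library.

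Library totals ran from 4129919 to 8038717 counts, and the 8 genes together took 3076 to 11809 counts of a library. The Bcl6KO stage 0 libraries stood apart. They had 16287 ± 1437 genes detected (SD, n = 3) against 19770 ± 1649 in WT stage 0, and Sp100, a nuclear body gene, took 10.8% to 23.9% of their counts against at most 5.03% in any other library. Levels below are in CPM, the counts normalised to library sizes after trimmed-mean (TMM) scaling, with group means ± SD of 3 libraries. Bcl6, the targeted gene, was counted at 373, 217 and 275 CPM in the WT stage 0 libraries, 8.77, 4.15 and 8.61 CPM in the WT stage 1 libraries, 511, 657 and 652 in Bcl6KO stage 0, and 14.7, 56.0 and 25.2 in Bcl6KO stage 1. At both stages all libraries labelled Bcl6KO had more Bcl6 counts per library size than the WT ones, and the fitted log2 differences of 1.07 (adjusted p = 0.285) at stage 0 and 2.15 (adjusted p = 0.624) at stage 1 did not pass the test. Counts over the whole gene cannot show whether its floxed part is gone, and they are no check of the labels either, so every genotype direction below rests on the labels. The 6 iNKT markers summed to 2276 to 4384 CPM over all libraries, and none of them was at 0 in all 3 libraries of a group. Most of that sum was Cd3e and Trbc2, which are not restricted to iNKT cells. Their group means were 1060 to 1687 and 710 to 1299 CPM. Zbtb16 was at 166 ± 60.9 and 544 ± 120 CPM in WT stage 0 and 1, and at 50.5 ± 43.0 and 356 ± 73.9 CPM in Bcl6KO. Egr2 went the other way, at 484 ± 121 and 75.1 ± 26.1 CPM in WT and 431 ± 40.9 and 113 ± 38.3 CPM in Bcl6KO. Trav11 had group means of 247 to 307 CPM and Traj18 of 0.928 to 2.70 CPM.

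Gimap4 was the member that moved with the stage. It took a small share of the family's counts at stage 0 and the largest at stage 1 in both genotypes. In WT stage 0 its level was 106, 134 and 17.7 CPM, and in WT stage 1 it was 390.2, 419 and 442 CPM. In Bcl6KO stage 0 it was 35.9, 8.72 and 24.6 CPM, and in Bcl6KO stage 1 it was 369, 313 and 319.8 CPM. Every stage 1 library exceeded every stage 0 library of either genotype, with group means of 86.2 ± 60.9, 417 ± 26.0, 23.1 ± 13.7 and 334 ± 30.7 CPM for WT at stage 0 and 1 and then for Bcl6KO at stage 0 and 1. The 6 stage 1 libraries lay close together, while the stage 0 libraries ranged from 46 to 683 raw counts.

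**Figure D1:**
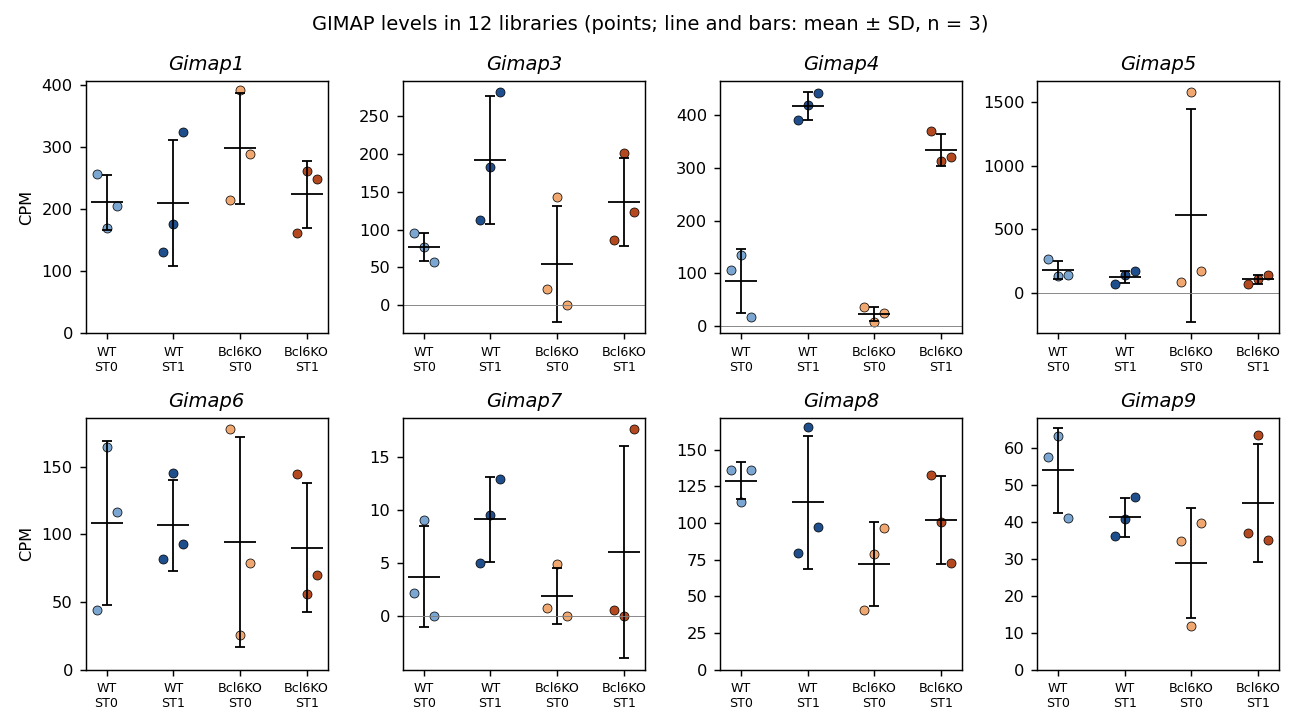
Level of each GIMAP gene in CPM (vertical axis, linear, with its own scale for each gene) in the 12 libraries by group; points are libraries, the horizontal line is the group mean and the bars are ± 1 SD (n = 3). Gimap4 lies between 8.72 and 134 CPM at stage 0 and between 313 and 442 CPM at stage 1, and 1 Bcl6KO stage 0 library stands at 1574 CPM for Gimap5.

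Counts were tested with edgeR's quasi-likelihood test over all 12 libraries and all 15704 genes that passed a filter on low counts, with Benjamini-Hochberg adjustment. All 8 members passed the filter. Averaged over both genotypes, Gimap4 rose from stage 0 to stage 1 with a log2 fold change of 3.06 (SE 0.44, 8.36-fold, adjusted p = 0.00283). It was the 1 member of 8 called in that comparison, in which 3.46% of all genes were called and 2.04% were called higher. Among all genes 1.89% had higher values in all 6 stage 1 libraries than in all 6 stage 0 libraries, and of the members Gimap4 did.

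Within the Bcl6KO libraries Gimap4 rose 14.5-fold (log2 fold change 3.85, SE 0.65, 95% interval 2.46 to 5.25, adjusted p = 0.0221). No other member was called there, against 0.675% of all genes called and 0.42% called higher, and 2 members, Gimap4 and Gimap5, had an unadjusted p under 0.05, as had 16.4% of genes. This call was lost when any 1 of 4 libraries was left out: without Bcl6KO stage 0 replicate 3 the adjusted p was 0.0653, and without Bcl6KO stage 1 replicate 1, 2 or 3 it was 0.0642, 0.0620 or 0.0667. It was also lost in a fit of the 6 Bcl6KO libraries alone, with adjusted p = 0.0786, and the log2 fold change stayed between 3.47 and 4.33 over 19 alternatives.

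In the WT libraries the difference was 4.84-fold and did not pass the test (log2 fold change 2.27, SE 0.60, 95% interval 0.97 to 3.58, adjusted p = 0.181). None of the 8 members was called in that comparison by edgeR, where 0.433% of all genes were called, and 1 member, Gimap4, had an unadjusted p under 0.05, as had 8.4% of all genes. DESeq2 called Gimap4 there (log2 fold change 2.25, adjusted p = 0.0402), along with 2.4% of the genes it tested. The difference between the stage effects of Bcl6KO and WT was 1.58 for Gimap4 on the log2 scale (SE 0.82, 95% interval -0.20 to 3.36, adjusted p = 0.686), so the effects were not shown to differ. None of the members, and 0% of all genes, was called in that comparison by edgeR, no member and 7.78% of genes had an unadjusted p under 0.05, and DESeq2 called no member and 1.25% of genes.

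**Figure D2:**
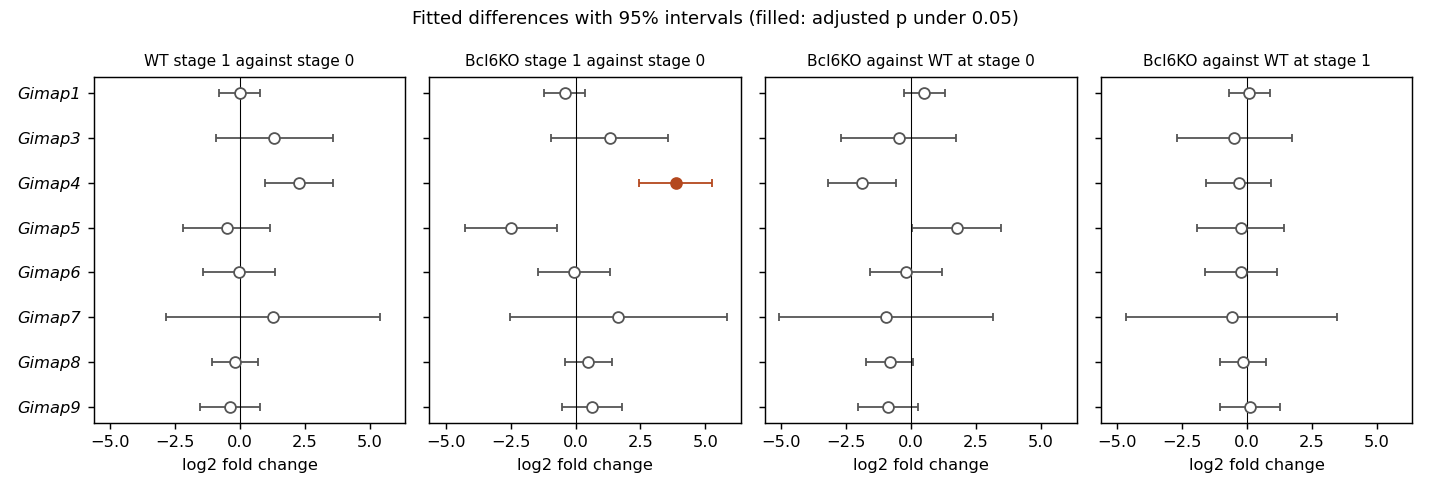
Fitted log2 fold change of each GIMAP gene (horizontal axis) with its 95% interval in 4 comparisons; filled symbols passed an adjusted p of 0.05. The filled symbol is Gimap4 between the stages in Bcl6KO, at 3.85, and in WT the interval of Gimap4 runs from 0.97 to 3.58.

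The composition of the family's counts shifted with Gimap4. Its share of the counts of the 8 genes was 9.65 ± 6.60% in WT stage 0 and 35.2 ± 6.72% in WT stage 1, and 3.25 ± 2.74% in Bcl6KO stage 0 and 32.1 ± 4.26% in Bcl6KO stage 1. The summed level of the family was 850.4 ± 125 CPM in WT stage 0 and 1219 ± 284 CPM in WT stage 1. Without Gimap4 these sums were 764 ± 83.4 and 802 ± 258 CPM, which lie within their spread. In Bcl6KO the sum was 1184 ± 914 CPM at stage 0 and 1047 ± 51.3 CPM at stage 1, and without Gimap4 it was 1161 ± 927 and 712 ± 77.2 CPM.

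**Figure D3:**
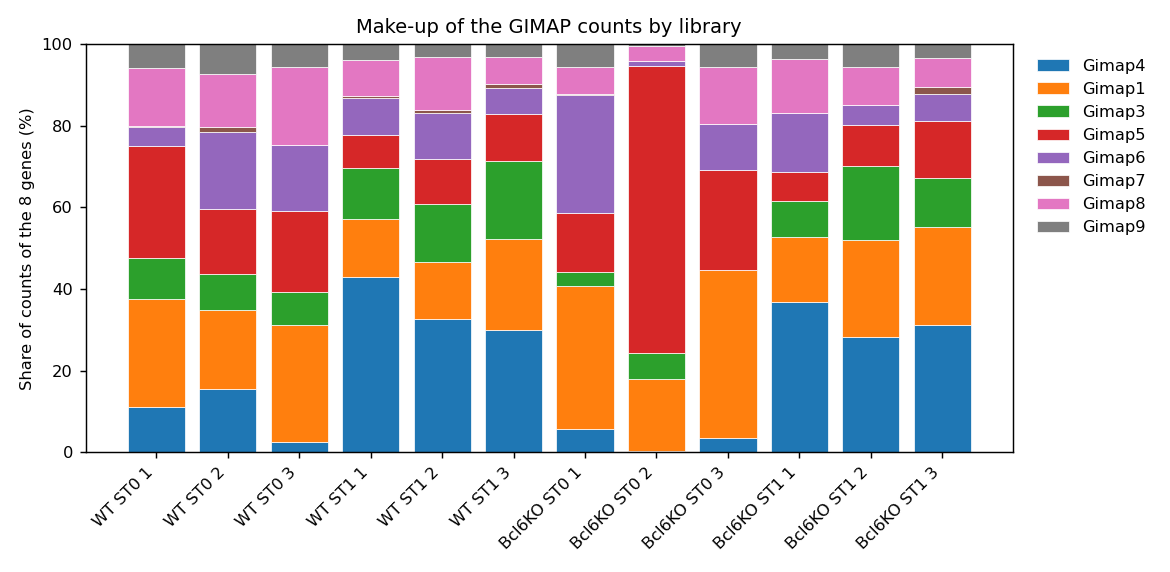
Share of the counts of the 8 GIMAP genes taken by each gene (vertical axis, %) in each of the 12 libraries. Gimap4 takes 28.4% to 42.8% in the stage 1 libraries and 0.390% to 15.5% in the stage 0 libraries, and Gimap5 takes 70.3% of the second Bcl6KO stage 0 library.

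Per kilobase of exon, Gimap1 was the highest member in WT stage 0, at 68.5 ± 14.4 CPM per kb, followed by Gimap4 at 46.9 ± 33.2 and Gimap5 at 43.8 ± 17.5. Gimap8, Gimap9, Gimap6 and Gimap3 lay between 29.8 and 34.8 CPM per kb. The SDs of Gimap9, Gimap6 and Gimap3 were 7.04, 17.4 and 7.32, wider than that range, and that of Gimap8 was 3.42. In WT stage 1 Gimap4 led at 227 ± 14.1 CPM per kb, apart from Gimap3 at 74.7 ± 32.9 and Gimap1 at 68.3 ± 32.9, which did not differ beyond their spread. In Bcl6KO stage 0 Gimap5 had the highest mean, 147 ± 201 CPM per kb, which 1 library sets, ahead of Gimap1 at 97.0 ± 29.1, and Gimap4 was the seventh at 12.6 ± 7.44. In Bcl6KO stage 1 Gimap4 led again at 182 ± 16.7 CPM per kb, before Gimap1 at 72.9 ± 17.5 and Gimap3 at 53.2 ± 22.6. Gimap7 was the lowest member in each group, between 0.821 and 3.93 CPM per kb.

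Gimap5, whose loss in mice and rats removes long-lived T cells, had its highest value in 1 library. Its levels were 266, 138 and 142 CPM in WT stage 0 and 74.7, 139 and 171 CPM in WT stage 1. In Bcl6KO stage 0 they were 88.0, 1574 and 172 CPM, and in Bcl6KO stage 1 they were 73.1, 109 and 143 CPM. The second Bcl6KO stage 0 library, with 8300 counts, stood 5.92 times above the next library, and the other 11 libraries overlapped across all groups. The fitted Bcl6KO against WT difference at stage 0 was 1.75 on the log2 scale (SE 0.80, adjusted p = 0.333) and became -0.50 without that library. The stage difference within Bcl6KO was -2.50 (SE 0.82, adjusted p = 0.156) by edgeR and became -0.26 without the library. DESeq2 called it at -2.56 (adjusted p = 0.0443), along with 8.47% of the genes it tested.

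That library held many genes of this kind. It had 161 genes with at least 50 CPM and at least 5 times the level of the next library, against 56 and 27 in the other Bcl6KO stage 0 libraries and 0 to 21 in the remaining 9. A long non-coding transcript on the opposite strand that ends 19 bases beyond Gimap5, Gm44226, was at 876 CPM in the same library and between 41.1 and 206 CPM elsewhere. Of 5 endothelial markers, Cdh5 and Emcn had 0 counts in all 12 libraries, and Kdr and Tek were at most at 0.205 and 0.592 CPM. The list's sum, nearly all of it Pecam1, ran up to 1440.5 CPM in 1 Bcl6KO stage 0 library, against at most 180.5 CPM in the other groups. Pecam1 was at 596 ± 733 CPM in Bcl6KO stage 0 and at 86.6 CPM or more in every library. The part of these genes in the Gimap5 value was not tested.

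Gimap1, which mature T and B cells need, had levels in every group that overlapped those of the others. It was at 257, 169 and 206 CPM in WT stage 0, 131, 176 and 324 CPM in WT stage 1, 214, 392 and 288 CPM in Bcl6KO stage 0, and 162, 261 and 249 CPM in Bcl6KO stage 1. The fitted differences lay between -0.41 and 0.50 on the log2 scale in the 4 comparisons of 2 groups, and none passed the test. For the WT stages the interval was -0.79 to 0.78, which leaves room for changes of less than 2-fold in either direction. Gimap1os, the antisense transcript, was at 28.5 to 232 CPM over the 12 libraries.

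Gimap3, the close relative of Gimap5, varied most in Bcl6KO stage 0. Its levels were 95.4, 77.0 and 57.7 CPM in WT stage 0 and 113, 183 and 282 CPM in WT stage 1, so the WT stages did not overlap. In Bcl6KO stage 0 it was at 21.4, 143 and 0.394 CPM, the last from 2 counts, and in Bcl6KO stage 1 at 86.8, 201 and 123 CPM. The fitted stage differences were 1.33 (SE 1.04, adjusted p = 0.842) in WT and 1.32 (SE 1.04, adjusted p = 0.578) in Bcl6KO. The Bcl6KO value rested on single libraries: it was 3.65 (adjusted p = 0.121) without Bcl6KO stage 0 replicate 2 and 0.75 (adjusted p = 0.572) without replicate 3 of that group. Averaged over genotypes the difference was 1.32 (SE 0.74, adjusted p = 0.377). Without Bcl6KO stage 0 replicate 2 it was 2.48 and passed the test (adjusted p = 0.0480). Gimap3 and Gimap4 were the members whose WT libraries did not overlap between the stages, both higher at stage 1, and 12.5% of all genes were so placed in that direction. In Bcl6KO this held for Gimap4 alone among the members, against 11.8% of all genes.

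Gimap6, the member that binds an autophagy protein, showed no difference between groups beyond its spread. Its means were 109 ± 60.7, 107 ± 33.9, 94.5 ± 77.3 and 90.2 ± 47.7 CPM for WT at stage 0 and 1 and then for Bcl6KO at stage 0 and 1. Its libraries ran from 26.0 to 178 CPM, and the lowest and the highest were both Bcl6KO stage 0 libraries. In the comparisons of 2 groups its fitted log2 differences lay between -0.24 and -0.03, with an interval of -1.41 to 1.36 for the WT stages.

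Gimap7, which can stimulate GTP hydrolysis by other GIMAP proteins, was near the limit of detection. It had 11, 46 and 0 counts in WT stage 0, 25, 48 and 63 in WT stage 1, 4, 26 and 0 in Bcl6KO stage 0, and 3, 0 and 88 in Bcl6KO stage 1. A count of 0 allows up to 3 counts, or 0.569 to 0.615 CPM in these libraries, counting error only. No difference between groups passed the test. Counts ran from 0 to 88 within Bcl6KO stage 1 alone, and the interval for the WT stages ran from -2.84 to 5.39 on the log2 scale.

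Gimap8 has several GTPase domains in 1 protein, and Gimap9 is its neighbour in the cluster. Both had lower values in all 3 Bcl6KO stage 0 libraries than in all 3 WT stage 0 libraries. Gimap8 was at 136, 114 and 136 CPM in WT stage 0 and 40.9, 78.9 and 96.9 CPM in Bcl6KO stage 0. Gimap9 was at 57.4, 63.2 and 40.9 CPM in WT stage 0 and 34.7, 11.9 and 39.8 CPM in Bcl6KO stage 0. These were the 2 members so placed, and 7.95% of all genes were lower in Bcl6KO without overlap. The fitted differences were -0.83 (SE 0.42, adjusted p = 0.372) for Gimap8 and -0.90 (SE 0.54, adjusted p = 0.463) for Gimap9, and neither passed the test. Over the alternatives they ran from -1.34 to -0.56 for Gimap8 and from -1.33 to -0.54 for Gimap9, the lowest with library totals, which move the median of all genes by -0.47 in this comparison, and the highest without Bcl6KO stage 0 replicate 1 and replicate 2 respectively. At stage 1 the groups overlapped for both genes, with Gimap8 at 114 ± 45.4 CPM (WT) and 102 ± 30.1 CPM (Bcl6KO) and Gimap9 at 41.2 ± 5.27 and 45.1 ± 15.9 CPM.

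Between the genotypes at stage 0 none of the 8 members was called by edgeR, against 0.0191% of all genes, and DESeq2 called no member and 6.41% of the genes it tested. Gimap4 and Gimap5 had unadjusted p-values under 0.05, as had 14.7% of all genes. Gimap4 was lower in Bcl6KO by the fit (log2 fold change -1.90, SE 0.60, adjusted p = 0.203), with the WT library at 17.7 CPM lying inside the Bcl6KO range. The median over the members was -0.66 against -0.01 over all genes tested. That median depended on single libraries, at -0.16 without WT stage 0 replicate 2 and -0.25 without Bcl6KO stage 0 replicate 3.

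At stage 1 no member and 0% of all genes passed the edgeR test between genotypes, and no member had an unadjusted p under 0.05, which 2.57% of genes had. DESeq2 called no member there and 0.103% of its genes. The fitted differences of the members ran from -0.59 for Gimap7 to 0.13 for Gimap9. Gimap4 was lower in all 3 Bcl6KO stage 1 libraries than in the WT ones, as were 7.44% of genes, with a fitted difference of -0.32 (95% interval -1.56 to 0.92, adjusted p = 1). Averaged over stages no member was called, and 0.00637% of all genes were. An unadjusted p under 0.05 was found for 1 member, Gimap4 (log2 fold change -1.11, SE 0.41, adjusted p = 0.337), and for 10.9% of genes. DESeq2 called no member in that average and 3% of its genes.

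Between the stages the members did not share 1 direction. The median log2 difference between the stages was -0.01 over the members in WT, where that of all genes was -0.0002, with 3 of 8 above 0. In Bcl6KO it was 0.57 against 0.01, with 5 of 8 above 0. Between genotypes 6 of 8 members were below 0 at stage 0, at stage 1 and averaged over the stages, while 49.5%, 51.1% and 49.8% of all genes were above 0. None of these genotype differences passed the test. Over the 28 pairs of members the Pearson correlation of log2 CPM across the 12 libraries ran from -0.75 (Gimap5 and Gimap6) to 0.74 (Gimap1 and Gimap5), and 14 pairs were positive. These are descriptions, since all pairs share the same libraries and 4 groups.

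Markers of double-positive thymocytes differed between the stages, and the B cell marker Pax5 fell over both genotypes (adjusted p = 0.0209). EdgeR called no tested regulatory T cell, myeloid, endothelial, thymic epithelium or erythroid marker between the stages. Within Bcl6KO DESeq2 called 1 marker each for regulatory T cells, endothelium and thymic epithelium, and 8.47% of its genes. The regulatory T cell list, mostly Ikzf2, summed to 259 to 942 CPM. The myeloid, epithelial and erythroid lists reached at most 77.7, 80.5 and 23.4 CPM. The summed level of 9 markers of double-positive thymocytes, the CD4+ CD8+ stage that precedes iNKT cells, was 547 to 1700 CPM in WT stage 0 and 204 to 591 CPM in WT stage 1. In Bcl6KO it was 1381 to 1441 CPM at stage 0 and 446 to 973 CPM at stage 1. Most of the stage 1 sums was Cd4, at 184 to 578 CPM in WT and 415 to 903 CPM in Bcl6KO. Cd4 was the 1 marker of the 9 above 0 with the stage over both genotypes (log2 fold change 0.52, adjusted p = 0.377). Rag2 was at 0 in all WT stage 1 libraries, and Rag1 was at 226 ± 234 and 3.11 ± 2.52 CPM in WT stage 0 and stage 1. Over both genotypes 6 of the 9 fell with the stage and none rose, where 1.42% of all genes were called lower. B cell markers summed to 16.9 to 162 CPM in Bcl6KO stage 0, 3.35 to 56.5 in WT stage 0 and at most 7.99 CPM at stage 1. Natural killer cell markers stayed at or below 7.70 CPM in every library. Their part in the GIMAP levels was not tested, and in sorted bulk samples fewer cells of a type and less RNA per cell cannot be told apart.

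Genes linked to the family by function were counted on lists. Of 16 genes of T cell maturation and thymic egress, 8 rose with the stage over both genotypes and none fell, against 2.04% of all genes called higher. B2m, the light chain of MHC class I, went from 607 ± 311 to 2536 ± 333 CPM in WT and from 576 ± 73.2 to 2159 ± 458 CPM in Bcl6KO (log2 fold change 1.99, adjusted p = 0.0006965). H2-D1, a class I heavy chain, rose by 1.80 (adjusted p = 0.00782), and Cd52, a surface glycoprotein of mature lymphocytes, by 1.95 (adjusted p = 0.00872). The list's median was 1.87, against 0.03 over all genes and 0.15 over the GIMAP members.

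Of 10 tested members of the BCL2 family, which sets the threshold for cell death and with which GIMAP proteins have been linked, 2 fell and 1 rose with the stage over both genotypes, against 1.42% and 2.04% of all genes. Bcl2, the survival factor, went from 638 ± 323 to 69.5 ± 22.9 CPM in WT and from 1124 ± 466 to 327 ± 142 CPM in Bcl6KO (log2 fold change -2.49, adjusted p = 0.00179). Bcl2l11, which encodes the death-promoting protein BIM, fell by 1.97 on the log2 scale over both genotypes (adjusted p = 0.0159). It was at 238 ± 65.5 and 26.1 ± 12.2 CPM at stage 0 and stage 1 of Bcl6KO (log2 fold change -3.19, adjusted p = 0.0278). In WT it was at 73.1 ± 45.2 and 43.4 ± 20.7 CPM, which did not pass the test (log2 fold change -0.75, adjusted p = 0.792). The difference between the stage effects, -2.43, did not pass the test either (adjusted p = 0.530). Bad rose (adjusted p = 0.0278) from 0 counts in all Bcl6KO stage 0 libraries and 0.723 ± 0.909 CPM in WT stage 0 to 8.01 ± 8.04 and 6.31 ± 3.92 CPM. The list's median was -0.42.

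None of 11 tested genes of autophagy and of the GSK3 kinases, partners named for Gimap6 and Gimap5, was called in any of the 7 comparisons by edgeR or DESeq2, with at most 2 at an unadjusted p under 0.05. Over these comparisons edgeR called 0% to 3.46% of all genes and DESeq2 0.103% to 9.47% of its genes. An unadjusted p under 0.05 was found for 2.57% to 18.3% of all genes. The most abundant, Ctnnb1, which encodes the GSK3 substrate beta-catenin, was at 307 ± 58.4, 309.7 ± 12.7, 273 ± 60.9 and 370.3 ± 148 CPM for WT at stage 0 and 1 and then for Bcl6KO at stage 0 and 1. Of 14 interferon-inducible GTPases, another family of immune GTP-binding proteins, 2 rose over both genotypes and 13 were above 0, with a median of 2.34, where 2.04% of all genes were called higher. Of all genes 51.1% were above 0 there. DESeq2 called 7 of them, against 9.47% of its genes, and 10 had an unadjusted p under 0.05, against 18.3% of all genes. Gbp6 rose by 2.91 (adjusted p = 0.0304) and Irgm1 by 2.87 (adjusted p = 0.0412), while edgeR called none of them within WT or within Bcl6KO. There 5 and 7 of them had an unadjusted p under 0.05, against 8.4% and 16.4% of all genes. DESeq2 called 0 and 4 of them, against 2.4% and 8.47% of its genes.

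Around the GIMAP cluster 52 other annotated genes lie within 500 kb, and 22 of them were tested. EdgeR called none of the 22 between the stages in WT or in Bcl6KO, with 2 and 6 at an unadjusted p under 0.05. DESeq2 called 0 and 6. The DESeq2 counts of neighbours are over all 52, not only the 22 that edgeR tested. Over all genes the unadjusted shares were 8.4% and 16.4%, and the DESeq2 shares 2.4% and 8.47%. Between genotypes edgeR called none at stage 0 or stage 1, with 3 and 1 at an unadjusted p under 0.05, and DESeq2 called 1 and 0. The shares of all genes were 14.7% and 2.57% unadjusted, and 6.41% and 0.103% by DESeq2. Averaged over genotypes 7 of the 22 had an unadjusted p under 0.05, against 18.3% of all genes. DESeq2 called 5 of the 52, against 9.47% of its genes. EdgeR called 1 of the 22, against 3.46% of all genes. The gene called was Gpnmb, which encodes a transmembrane glycoprotein and lies 265.7 kb away (adjusted p = 0.0280). It had 0 counts in all Bcl6KO stage 0 libraries, 11.3 ± 19.2 CPM in WT stage 0, and 60.4 ± 17.5 (WT) and 44.5 ± 19.7 CPM (Bcl6KO) at stage 1. The genes next to Gimap4, Gimap9 and Gimap6, had fitted stage differences of 0.13 (SE 0.38) and -0.05 (SE 0.45) over both genotypes.

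**Figure D4:**
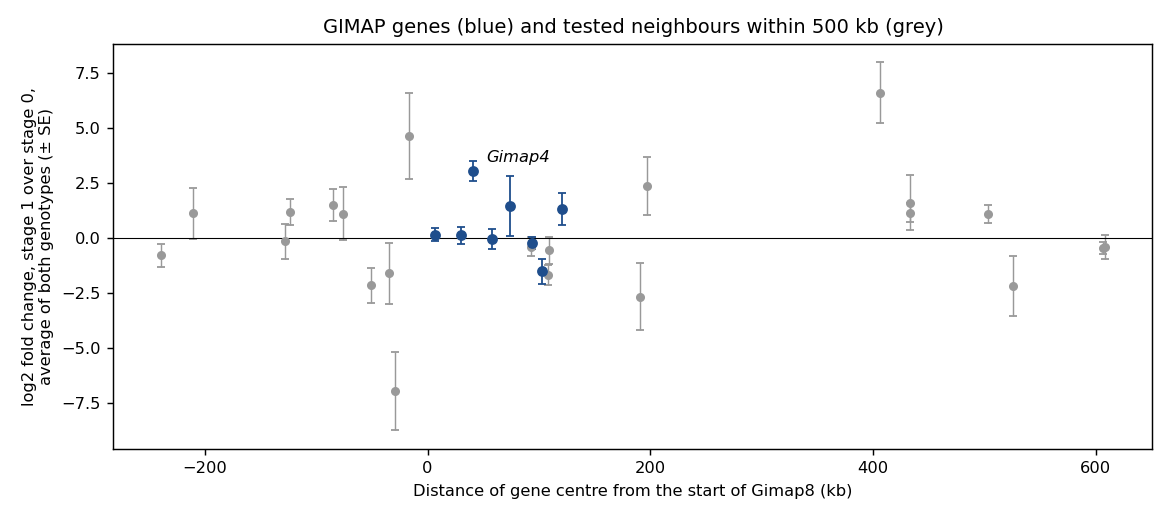
Fitted log2 fold change of stage 1 over stage 0, averaged over genotypes (vertical axis, ± SE), against the distance of each gene's centre from the start of Gimap8 (horizontal axis, kb). GIMAP genes are blue and the 22 tested neighbours grey; Gimap4, at 3.06, stands between members near 0.

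The genes most like the family's mean pattern were named by the correlation of log2 CPM across the 12 libraries, over 11360 candidate protein-coding genes. Most like the mean of the 8 members were Kif21b, a kinesin motor (r = 0.90), Chst11 (0.85), Acaa1a (0.85), Cdh13 (0.85), Naxd (0.85) and Snapc2 (0.84). The members themselves correlated with that mean at -0.018 (Gimap1) to 0.71 (Gimap3), with Gimap5 at 0.0059 and Gimap6 at 0.060. The mean therefore does not stand for each member. Kif21b was at 265 ± 46.9, 296 ± 51.2, 147 ± 42.8 and 228 ± 6.11 CPM for WT at stage 0 and 1 and then for Bcl6KO at stage 0 and 1. Most like Gimap4 alone, a choice made after its values were seen, were Akap6 (0.98), Pde3b (0.98), Smurf2 (0.98), Il13 (0.97), Traf1 (0.97) and Ttc39b (0.96). Pde3b, a phosphodiesterase, was at 126 ± 97.3 and 518 ± 164 CPM in WT stage 0 and stage 1 and at 39.4 ± 19.7 and 315 ± 51.4 CPM in Bcl6KO stage 0 and stage 1. Traf1, a signalling adaptor of tumour necrosis factor receptors, was at 13.3 ± 14.6 and 77.6 ± 17.5 CPM in WT and at 0.982 ± 0.405 and 51.0 ± 13.2 CPM in Bcl6KO. These correlations describe libraries that share the same 4 groups and carry no test.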

How the data were processed

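The authors deposited unnormalised gene counts, with 48672 Ensembl gene IDs in each library's file. The submitters' processing notes name the build mm10 and the tools TopHat2, Bowtie2, bcl2fastq and DESeq. How reads were assigned to genes (program, annotation, strand) is not given in the sources used here. A symbol and position came from GENCODE release M21 for 48312 of the IDs, and the others took 0.195% to 0.366% of a library's counts. RefSeq (GRCm38.p6) gave the promoter sequences.

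Counts were fitted with edgeR 4.0.16 in R 4.3.3: trimmed mean of M-values scaling, filterByExpr by group (15704 genes kept), robust quasi-likelihood dispersions over all 12 libraries and 1 mean per group, with 8 residual degrees of freedom. Tests were two-sided, with Benjamini-Hochberg adjustment over all genes at 0.05. Standard errors were derived from the log2 fold change and its F statistic. The common coefficient of biological variation was 0.835. Levels are CPM on the scaled library sizes, and correlations used log2 CPM with a prior count of 2. Alternatives were DESeq2 1.42.0, other scalings, no filter, fits without Sp100 or of the compared groups alone, a replicate block, and leaving out each library. The fit was tested on simulated data. Libraries of 1 group differed by more than sampling noise (chi-square per gene 27.6 to 169.9), so none was taken for another deposited again; this does not show that they are separate pools.

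The members, lists and alternatives were chosen with earlier results of these data known. Named genes are the 8 members, the neighbours within 500 kb that were called, up to 3 called genes per pathway list by lowest p or else the most abundant one, the 6 genes most like the family mean, Bcl6 and Sp100. Markers, Gm44226, Gimap1os, Gm28053 and the genes most like Gimap4 were named after their values were seen.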

Additional observations from a re-analysis of the deposited data

How the results depend on the processing

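The rise of Gimap4 averaged over genotypes passed the test in 18 of 18 alternatives, with log2 fold changes of 2.83 to 3.31 and adjusted p from 3.86e-08 to 0.00930. The rise within Bcl6KO passed in 14 of 19 (adjusted p 4.09e-06 to 0.0786), and the WT difference in 1 of 19, DESeq2 (0.0402 to 0.464). The number of members called was 1 by DESeq2 for the WT stages, 2 by DESeq2 and 0 with only the groups compared for the Bcl6KO stages, 0 to 1 there on leaving out each library, and 1 to 2 for the average over genotypes. Deviations of 18 same-numbered pairs correlated between -0.075 and 0.12 (median 0.026), and those of 36 other pairs between -0.23 and 0.16 (median -0.0102). Such weak correlations between noisy libraries cannot settle whether the same replicate numbers mark paired samples. With a replicate block Gimap4 was at 3.88 within Bcl6KO (adjusted p = 0.0477) and the block changed no count of members called.

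Of the log2 differences that changed sign, none passed the test before or after. With library totals in place of scaled sizes, which moves the median of all genes by 0.08 between the WT stages and 0.50 between the Bcl6KO stages, Gimap1 was at 0.0798 and Gimap6 at 0.0067 in WT, Gimap1 at 0.105 and Gimap6 at 0.37 in Bcl6KO, and the difference between stage effects of Gimap3 was 0.54. The latter was 0.0032 without Sp100, 0.10 with no filter and 0.51 with the replicate block. On leaving out each library in turn, the WT stage difference ran from -0.45 to 0.26 for Gimap1, -0.43 to 0.37 for Gimap6 and -0.53 to 0.0393 for Gimap8, and the Bcl6KO stage difference from -0.56 to 0.79 for Gimap6 and -2.56 to 3.85 for Gimap7. Between genotypes at stage 0 it ran from -2.82 to 0.0852 for Gimap3, -0.50 to 2.25 for Gimap5, -1.05 to 0.23 for Gimap6 and -3.16 to 0.76 for Gimap7. At stage 1 it ran from -0.17 to 0.54 for Gimap1, -0.52 to 0.0138 for Gimap5, -0.74 to 0.0356 for Gimap6, -0.38 to 0.20 for Gimap8 and -0.20 to 0.27 for Gimap9. The difference between stage effects ran from -0.57 to 2.34 for Gimap3 and -2.50 to 0.27 for Gimap5, and the genotype effect averaged over stages from -0.37 to 1.00 for Gimap5. The cause was not tested.

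Gimap7 had no value for the Bcl6KO stages when only the groups compared were fitted.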

Other observations

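The libraries of a group lay closer together for Gimap4 at stage 1 than at stage 0. Its coefficient of variation over 3 libraries was 6.23% in WT stage 1 and 9.20% in Bcl6KO stage 1, where the median over all genes with a mean of at least 10 CPM was 27.2% and 37.1%. At stage 0 it was 70.7% in WT and 59.2% in Bcl6KO, against medians of 43.2% and 66.2%. With 3 libraries a group no test of these spreads was made.

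The levels of 2 non-coding transcripts were compared with the member beside each. Across the 12 libraries Gimap5 and the non-coding Gm44226 had a Pearson correlation of 0.89, which was 0.65 in the 11 libraries without Bcl6KO stage 0 replicate 2. Gimap1 and its antisense transcript Gimap1os were at 0.75, and 0.61 without that library. Gimap5 and Gimap1os, which lie 4752 bases apart, were at 0.73, and 0.46 without that library. Gimap1 and Gimap5 were at 0.74, and 0.66 without it, so such values were not particular to the overlapping pair. Gimap5 and Gimap3 were at 0.081. The non-coding 4833403J16Rik, which overlaps Gm44226, was at 7.01 CPM in Bcl6KO stage 0 replicate 2, where Gm44226 was highest. The first 2 pairs lie 19 bases apart or overlap, the libraries fall into 4 groups, and the values are descriptions with no test.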
